A study of Mus musculus with 2 samples.

Results

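Barcodes nearly without mitochondrial RNA were selected in 2 single-cell RNA libraries of mouse leukemic promyelocytes. They were chosen by a measured value: barcodes were kept where they held no fewer than 1000 UMIs and 500 genes and no more than 10% of UMIs in mitochondrially encoded (mt-) genes, and members had at most 0.1% there. UMIs (unique molecular identifiers) count the RNA molecules captured per barcode. Of 12616 kept barcodes, 634 were members: 144 of 5476 in the vehicle library (2.63%, exact 95% binomial interval 2.22 to 3.09) and 490 of 7140 in the retinoic acid library (6.86%, 6.29 to 7.47). All other kept barcodes of the same library, 5332 and 6650, served as the comparison and are called the others below.

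Both libraries came from leukemic bone marrow cells transformed by the PLZF/RARA fusion and sorted as late promyelocytes, which were positive for Cd45.2, C-Kit, Gr1 and FcγR and negative for Cd34 (Cd34-). Mice had been injected intraperitoneally for 7 days with 0.8 to 1 mg retinoic acid, or with corn oil holding 10% DMSO as vehicle; both groups were PLZF/RARA transformed. The labels give a cohort of 3 to 5 mice, and neither the number of mice behind each library nor their age, strain or the promoter driving the fusion. Each group held 1 library, so no statistical test was made: differences between treatments, mice and preparations cannot be told apart. Intervals of sums, ratios and shares cover counting error only, and those of list medians describe the spread over genes. None covers differences between mice or libraries.

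A living cell carries RNA in separate places. The mitochondrial genome is transcribed inside mitochondria, and its RNA stays there. Malat1, Neat1 and Kcnq1ot1 are long noncoding RNAs held in the nucleus, while most spliced messenger RNAs are in the cytosol, free or on ribosomes bound to the endoplasmic reticulum (ER). Mitochondrial share is used in single-cell work mainly as an upper limit for damaged cells. Promyelocytes are granulocyte precursors that load serine proteases into primary granules, and later stages make the proteins of secondary granules.

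Members were not empty of RNA. They carried a median of 10452 UMIs in the vehicle library and 11554 in the retinoic acid library, against 16881 and 14837 in the others, and ranged from 2174 to 43203 and from 1097 to 33896 UMIs. They held 1.74% of the kept vehicle UMIs and 5.30% of the kept retinoic acid UMIs. The median mitochondrial share was 0.0228% and 0.0166% in members against 2.02% and 1.30% in the others, and 25 vehicle and 136 retinoic acid members had no mt- UMI at all. With each barcode thinned at random to 5000 UMIs, which left out 8 and 79 members and 186 and 402 others, members showed a median of 1648 and 1729 genes against 1854 and 1844. Unthinned medians were 2613 and 2793 genes in members against 3763 and 3495.

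The limit of 0.1% did not fall in a gap. Just inside it, from 0.075% to 0.1%, lay 14 vehicle and 43 retinoic acid barcodes, with median depths of 9977 and 10776 UMIs. Just outside, up to 0.125%, lay 20 and 47, with median depths of 12865 and 11099 UMIs. The lowest interval of the same width, up to 0.025%, held 73 and 300 barcodes, more than any other interval of that width up to 0.2%, where counts ran from 11 to 32 in the vehicle library and from 32 to 82 in the retinoic acid library. Only 11 barcode sequences occurred in both libraries, and none was a member in both.

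The mt- genes themselves describe the rule and show nothing beyond it. In counts summed over members and scaled to the same total for each group (CPM), mt-Co3, a subunit of the last respiratory chain complex, stood at 84.8 CPM in vehicle members against 5359 in the others, and at 69.6 against 3278 CPM in the retinoic acid library. The 11 mt- genes that passed the limit on low counts had log2 ratios of −8.48 to −4.84 and of −6.32 to −5.03; the −8.48 belonged to mt-Nd5, with 0 counts in vehicle members, and depends on the 0.5 counts added to each sum. They were left out of the gene counts that follow.

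Members kept the promyelocyte transcripts. The promyelocyte markers, among them Elane, Prtn3, Ctsg, Kit and Ly6c2, summed to 15077 CPM in vehicle members against 13094 in the others, and to 25022 against 23173 CPM in the retinoic acid library. The higher vehicle sum lay in Ly6c2, at 6847 against 4728 CPM, while Ctsg stood at 6337 against 6446 CPM there. Of the promyelocyte markers only Mpo, which encodes myeloperoxidase, had 0 counts in retinoic acid members, and it was at 0.528 CPM in the others there. Erythroid markers, globins included, were near 0 and summed to 2.91 and 0.857 CPM in members (4.26 and 0.815 in the others), with 7 and 8 of 10 genes at 0. Of the T or NK cell markers, Nkg7, which granulocyte precursors also express, carried nearly all of the sum. The other 8 were at 0 in vehicle members, and 6 of them in retinoic acid members. B or plasma cell markers summed to 13.9 and 47.3 CPM against 7.30 and 44.8, with Ms4a1, Igkc and Jchain at 0. Platelet or megakaryocyte markers summed to 36.0 against 29.4 CPM and 1.20 against 1.53 CPM, all of it Itga2b in vehicle members. Dendritic cell markers summed to 295 against 269 CPM and 124.4 against 125.7 CPM, nearly all of it Bst2, with Siglech and Xcr1 at 0. Mast cell or basophil markers summed to 738 against 807 CPM and 67.2 against 68.2 CPM, and macrophage or monocyte markers to 2174 against 1584 CPM and 1659 against 1594 CPM, most of it Ly6c1, with Mrc1 and C1qc at 0. Among genes of the sorted antigens, Ly6c2, part of the Gr1 epitope, was higher in members (log2 0.53 and 0.15; it may share reads with the near-identical Ly6c1). Ly6g had log2 ratios of 2.37 and 0.38, with 48.0% of its counts in vehicle members in 1 barcode. Against others of the same depth Ly6g had 1.01 and −0.39. Of the Fc receptor genes, Fcgr3 had 0.37 and 0.25, and Fcgr2b 0.005 and 0.03. Ptprc, which encodes Cd45, was lower (55.2 against 100.4 CPM and 68.9 against 104.1 CPM). Kit stood at 14.0 against 19.4 CPM and 10.96 against 17.0 CPM. Cd34 had 40.1 against 54.1 CPM in the vehicle library and 0 counts in retinoic acid members, where the others stood at 0.1247 CPM.

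Among nuclear RNAs, Malat1 and Kcnq1ot1 were also far lower in members. Malat1 (ENSMUSG00000092341, GRCm38 chromosome 19, 5795690 to 5802672) stood at 122.6 CPM in vehicle members against 2278 CPM in the others, and at 606 against 2430 CPM in the retinoic acid library. The log2 ratios were −4.21 (counting interval −4.42 to −4.02) and −2.0 (−2.05 to −1.96), so Malat1 was lower in members of both libraries, and by more in vehicle members. Kcnq1ot1, the antisense RNA of an imprinted domain, stood at 6.97 against 154.2 CPM and 24.8 against 97.8 CPM, log2 ratios of −4.41 (−5.42 to −3.66) and −1.97 (−2.22 to −1.74). Neat1, the scaffold of nuclear paraspeckles, stood at 40.1 against 104.6 CPM and 23.3 against 30.6 CPM (log2 −1.37 and −0.39). With members taken up to 0.2%, the vehicle log2 ratios were −2.80 for Malat1 and −3.36 for Kcnq1ot1, and against others of the same depth Neat1 had −1.91 and −0.73. These were the 3 of 17 nuclear-retained RNAs in the files that passed the limit of 20 CPM in members or others, and each had a log2 ratio below 0 in both libraries. Genes of like transcript length had medians of −1.05 and −0.70, so Neat1 in the retinoic acid library was not lower than these. With a limit of 5 CPM the list's retinoic acid median was −0.34. Pvt1, under the limit of 20 CPM, differed less, with 14.5 against 19.3 CPM and 12.2 against 12.4 CPM. Xist, also under it and named after its values were seen, had 0 counts in vehicle members (exact interval up to 2.14 CPM) against 3.29 CPM in the others. In the retinoic acid library Xist stood at 0.685 against 2.48 CPM. Among barcodes thinned to 5000 UMIs, no Malat1 UMI was seen in 71.3% of 136 vehicle members (exact interval 62.9 to 78.7) against 9.81% of 5146 others, and in 47.4% of 411 retinoic acid members (42.5 to 52.4) against 7.27% of 6248 others. No cell type sorted here lacks Malat1, so no background share could be set beside these values.

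**Figure D1:**
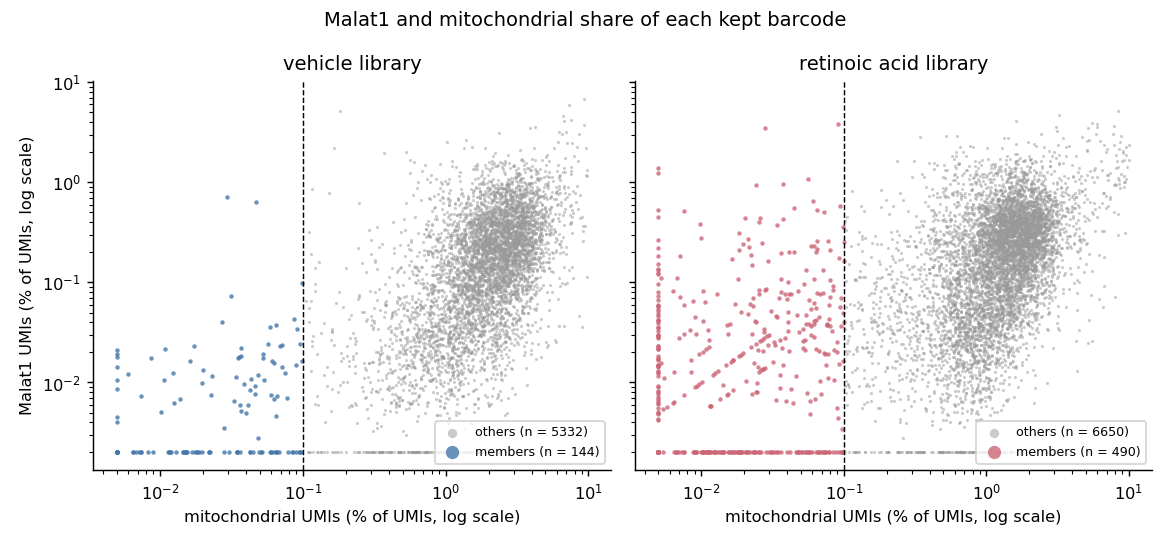
Malat1 UMIs (vertical axis, percent of UMIs, log scale) against mitochondrial UMIs (horizontal axis, percent of UMIs, log scale) of every kept barcode, members coloured and others grey, with the 0.1% limit dashed; barcodes with no UMI are drawn at 0.002% for Malat1 and 0.005% for mitochondrial UMIs. Members of both libraries collect at and near the bottom, and 490 retinoic acid members reach higher Malat1 shares than 144 vehicle members.

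Among messenger RNAs, differences ran mostly toward lower values in members. Of 5327 genes with at least 20 CPM in members or others of the vehicle library, 573 were at least 2-fold lower (10.8%) and 18 at least 2-fold higher (0.338%). Of 5233 genes in the retinoic acid library, 83 were at least 2-fold lower (1.59%) and 0 at least 2-fold higher (0%). The median log2 ratio over all genes was −0.12 and −0.05, and 60.6% and 57.6% of genes lay below 0. Over the 4851 genes compared in both libraries, the log2 ratios of the separate libraries correlated with Pearson's r of 0.844 and Spearman's rho of 0.845, across genes that share barcodes and depth and are not independent, and 82.2% had the same sign. Of the genes in that overlap, 63 were at least 2-fold lower in both, which is 11.95% of the 527 vehicle genes and 91.3% of the 69 retinoic acid genes. TMM scaling, which discounts the few largest differences, raised all log2 ratios by 0.15 and 0.08 and moved the medians to 0.04 and 0.03, so values near 0 have no settled sign. With it 404 vehicle genes were at least 2-fold lower and 27 at least 2-fold higher. In the retinoic acid library 52 genes were at least 2-fold lower.

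**Figure D2:**
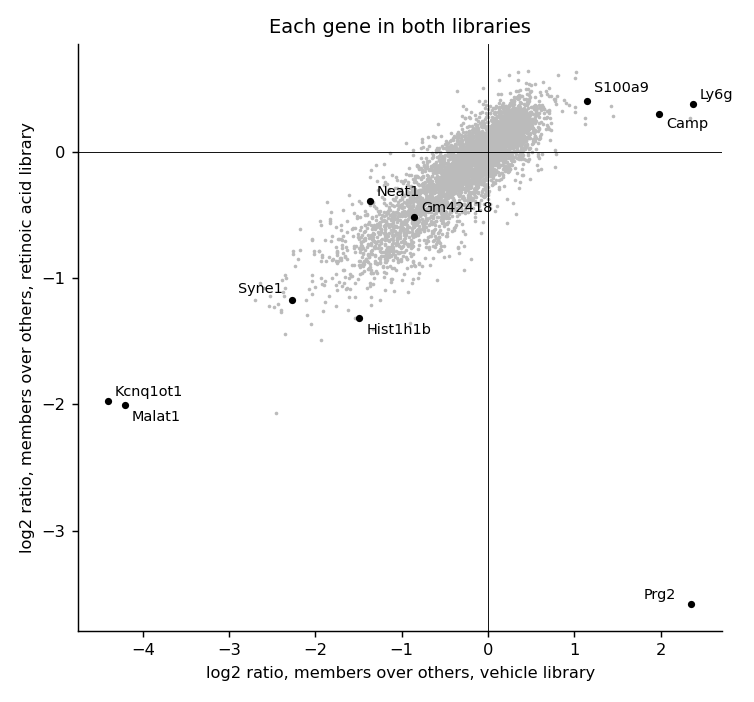
Each point is a gene compared in both libraries, with its log2 ratio of members over others in the vehicle library (horizontal axis) and in the retinoic acid library (vertical axis). Most of the 4851 genes lie along a rising band that spreads wider along the vehicle axis, with Malat1 and Kcnq1ot1 far down to the left; Camp, Ly6g and Prg2 lie to the right, in the vehicle library only.

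The 10 genes lowest in both libraries at 50 CPM or more, mt- genes left out after values were seen, were Kcnq1ot1, Malat1, Hist1h1b, Hist1h1e, Akap9, Ankrd12, Gm20342, Nktr, Resf1 and Syne1. Apart from the linker histones Hist1h1b and Hist1h1e, all are annotated with long transcripts, the shortest of them Resf1 with 6066 bases. Syne1, which encodes a giant protein of the nuclear envelope (chromosome 10, 5020917 to 5551482), stood at 16.9 against 82.5 CPM and 51.7 against 116.7 CPM. Akap9, a scaffold of the centrosome and Golgi, stood at 11.6 against 68.6 CPM and 34.8 against 76.8 CPM. Nktr, a cyclophilin-domain protein, had log2 ratios of −2.09 (−2.57 to −1.69) and −1.29 (−1.50 to −1.10). Ankrd12, whose protein carries ankyrin repeats, had −1.85 (−2.22 to −1.52) and −1.14 (−1.3 to −0.99). The 10 highest in both libraries differed far less, with log2 ratios of 0.45 to 0.67: Dok3, Kcnab2, Mea1, Ninj1, Parvg, Pglyrp1, Psmc1, Rbm42, Zdhhc4 and Zyx. Pglyrp1, a secreted peptidoglycan-binding protein of neutrophil granules, stood at 675 against 433 CPM and 1507 against 1029 CPM. Mea1 stood at 100.5 against 63.2 CPM and 94.2 against 67.4 CPM. Psmc1, an ATPase subunit of the proteasome, stood at 105.2 against 75.9 CPM and 97.1 against 67.0 CPM. With the others weighted to the members' UMI depth, Dok3 and Zyx in the vehicle library came to log2 ratios of 0.02 and 0.14.

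Transcript length ordered the differences in both libraries. Genes with annotated transcripts of up to 1000 bases, noncoding genes included, had a median log2 ratio of 0.20 (586 genes) and 0.12 (573 genes). The median was lower in each longer class, down to −1.05 (205 genes) and −0.72 (211 genes) above 8000 bases. In that longest class 53.2% of vehicle genes and 13.3% of retinoic acid genes were at least 2-fold lower, against 10.8% and 1.59% over all genes. Across protein-coding genes alone, Spearman's rho between transcript length and log2 ratio was −0.53 and −0.57. It was −0.50 and −0.55 among genes at 20 to 50 CPM in the others and −0.54 and −0.54 among those at 100 CPM or more, so both weakly and strongly expressed genes showed it. The coding part gave −0.46 and −0.50, the 3′ untranslated part −0.37 and −0.38, and the 5′ untranslated part −0.14 and −0.15. GC content, which is lower in long transcripts, gave 0.53 and 0.49. Among coding transcripts over 4000 bases, those with GC below the median of protein-coding genes had a median log2 ratio of −0.84 and −0.54. Those at or above it had −0.23 and −0.22. At 5000 UMIs per barcode, coding transcripts over 6000 bases took a median of 2.02% of a vehicle member's UMIs against 3.48% in the others (unthinned 2.03% and 3.47%), and 2.38% against 3.52% in the retinoic acid library (unthinned 2.39% and 3.53%). Of 136 vehicle members, 100 lay below the 5th percentile of the others, and of 411 retinoic acid members, 187 did. The gap between transcripts over 6000 bases and those of at most 1000 bases, noncoding ones included, was −1.14 and −0.74 in median log2 ratio. With the others weighted to the depth of members it was −1.14 and −0.76.

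**Figure D3:**
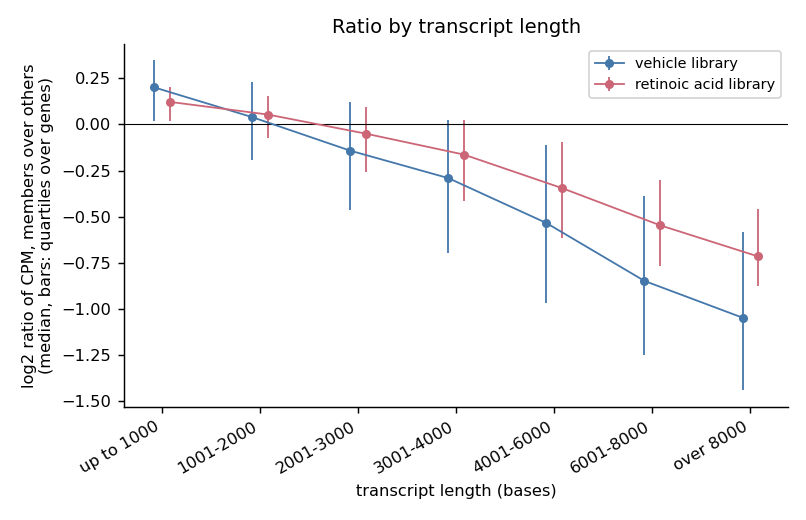
Median log2 ratio of members over others (vertical axis) in classes of annotated transcript length in bases (horizontal axis) for both libraries, with bars for the quartiles over genes. The median goes from 0.20 and 0.12 in the shortest class to −1.05 and −0.72 in the longest.

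Messages with a known nuclear stage were lower as well. Splicing factors whose transcripts often retain introns in the nucleus had a median log2 ratio of −0.93 over 25 genes in the vehicle library, where 24 lay below 0 and 11 were at least 2-fold lower (60.6% and 10.8% over all genes). In the retinoic acid library the median was −0.47 over 24 genes, all below 0, with 1 at least 2-fold lower (57.6% and 1.59% over all genes). Genes of like transcript length had medians of −0.13 and −0.08. Ddx5, an RNA helicase, stood at 234 against 384 CPM and 336 against 427 CPM. Srsf3, a serine and arginine rich splicing factor, stood at 304 against 403 CPM and 495 against 535 CPM, and the related Srsf2 at 210 against 306 CPM and 338 against 349 CPM. Host genes of small nucleolar RNAs, whose spliced RNA also reaches the cytosol, had medians of −0.05 over 12 genes and −0.09 over 11 genes. Of these, 0 were at least 2-fold lower in either library (10.8% and 1.59% over all genes). Genes of like transcript length had higher medians, of 0.22 and 0.14. Gas5, the host RNA with most counts, stood at 865 against 847 CPM and 584 against 568 CPM.

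The locus that holds a copy of ribosomal RNA on chromosome 17 was lower in members. Gm42418 (chromosome 17, 39846958 to 39848788) stood at 464 against 842 CPM and 588 against 841 CPM, log2 ratios of −0.86 (−0.96 to −0.76) and −0.52 (−0.57 to −0.47). AY036118, on the opposite strand inside it, had −2.05 and −1.36, and the neighbouring Gm26917 −1.75 and −0.82. Lars2, the remaining gene of the list, on chromosome 9, had −0.69 and −0.31. How the counting assigned reads to Gm42418 and AY036118, which overlap on opposite strands, was not tested.

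Replication-dependent histone genes, whose transcripts mostly end in a stem-loop instead of a poly(A) tail, are captured poorly by this chemistry, and only 7 of 67 passed the limit on low counts. Their median log2 ratio was −1.26 in the vehicle library and −1.19 in the retinoic acid library, with 4 of 7 at least 2-fold lower in each (10.8% and 1.59% over all genes). Hist1h1b stood at 33.7 against 95.8 CPM and 58.1 against 144.8 CPM. Hist1h2ae stood at 4.65 against 25.3 CPM and 17.1 against 46.7 CPM, and Hist1h1e at 14.0 against 52.8 CPM and 30.7 against 70.2 CPM. Hist1h1c did not follow in the vehicle library, at 73.8 against 63.5 CPM, and stood at 18.8 against 28.0 CPM in the retinoic acid library. Weighting the others to the members' depth moved the list's median to −0.09 and −0.80. In the vehicle library Hist1h1b came to −0.77, while Hist1h1e at −1.37 and Hist1h2ae at −1.70 were still over 2-fold lower. Replacement histones, made throughout the cell cycle from polyadenylated messages, had medians of −0.01 and −0.02, with H2afz at 2011 against 2029 CPM and 2418 against 2353 CPM.

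The values of cell cycle genes changed with depth too. S phase genes had medians of −0.30 and −0.18 and G2/M genes −0.55 and −0.34, with 5 of 33 and 1 of 37 S phase genes, and 10 of 42 and 2 of 45 G2/M genes, at least 2-fold lower. Over all genes 10.8% and 1.59% were, and the S phase counts lie near these shares. Against others of the same depth the medians were 0.06 and −0.18 for S phase and 0.26 and −0.14 for G2/M, so the vehicle values changed sign. Hmgb2, a chromatin protein high in G2 and M, went from −0.35 to 0.16 in the vehicle library.

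Cytosolic ribosomal protein messages, short and abundant, were slightly higher in members. They took 32.9% of vehicle members' UMIs against 29.0% in the others and 26.3% against 25.3% in the retinoic acid library, with median log2 ratios of 0.17 (63 of 79 genes above 0) and 0.07 (56 of 79), where 39.4% and 42.4% of all genes lay above 0. Genes of like transcript length had medians of 0.16 and 0.11, so the ribosomal list did not differ from them by more than 0.05. Rps24 stood at 10151 against 7992 CPM and 6691 against 6011 CPM. Per barcode thinned to 5000 UMIs the medians were 33.4% against 29.2% and 27.1% against 25.9%. Translation factors had medians of −0.04 and −0.04.

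Nuclear-encoded messages for mitochondrial proteins were not lower in members. Subunits of the respiratory chain made from the nuclear genome had median log2 ratios of 0.19 (64 of 79 above 0) and 0.16 (67 of 79), and mitochondrial ribosomal proteins 0.09 (54 of 77) and 0.11 (62 of 75). Over all genes 39.4% and 42.4% lay above 0. Genes of like transcript length had medians of 0.16 and 0.11 for the respiratory chain list and 0.08 and 0.08 for the ribosomal one. No gene of either list was at least 2-fold higher, and 1 respiratory chain gene, in the vehicle library, was at least 2-fold lower. Over all genes 0.338% and 0% were at least 2-fold higher, and 10.8% and 1.59% lower. Atp5g2, a subunit of the ATP synthase ring, stood at 2054 against 1587 CPM and 1680 against 1464 CPM, and Cox6c at 1392 against 1117 CPM and 1373 against 1193 CPM. At 5000 UMIs, respiratory chain messages took a median of 3.38% of a member's UMIs against 2.90% in the vehicle library, and 3.44% against 3.04% in the retinoic acid library (unthinned 3.36% against 2.92% and 3.47% against 3.07%). In the same barcodes the mt- genes of the same complexes were nearly absent, which is the rule.

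Coding genes whose protein starts with a hydrophobic stretch, which often directs translation to the ER, lay slightly higher than other coding genes. Their median log2 ratio was −0.01 in each library (661 and 632 genes), against −0.14 and −0.06 for those without one (4586 and 4526 genes). Measured from the median of genes of like length, the vehicle medians were 0.10 with such a start and −0.01 without, and in the retinoic acid library they differed by less, at 0.023 and −0.0018. The ER folding and translocation list had medians of −0.22 (29 of 36 below 0) and −0.10 (21 of 36 below 0; 60.6% and 57.6% over all genes), and −0.07 and −0.03 against others of the same depth. Within it, Calr, a calcium-binding chaperone, stood at 1299 against 1781 CPM and 663 against 825 CPM. The short message of Ssr4, a translocon-associated subunit, stood at 1871 against 1588 CPM and 1212 against 1062 CPM. Surface membrane proteins had medians of 0.03 and 0.04 and lysosomal proteins 0.17 and 0.09. Cytosolic glycolytic enzymes had 0.12 and 0.10, with Gapdh at log2 ratios of 0.64 and 0.35 and Aldoa at 1587 against 1150 CPM and 1083 against 960 CPM. Cytoskeletal messages had 0.09 and 0.06, although Actb, the beta-actin gene, stood at 2344 against 3396 CPM in the vehicle library and 3171 against 3614 CPM in the retinoic acid library. Of stress genes, Hsp90aa1, an inducible chaperone, stood at 576 against 1149 CPM and 779 against 1147 CPM, while the list of heat shock and apoptosis genes had medians of −0.15 and −0.10 and immediate early genes −0.11 and 0.01.

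**Figure D4:**
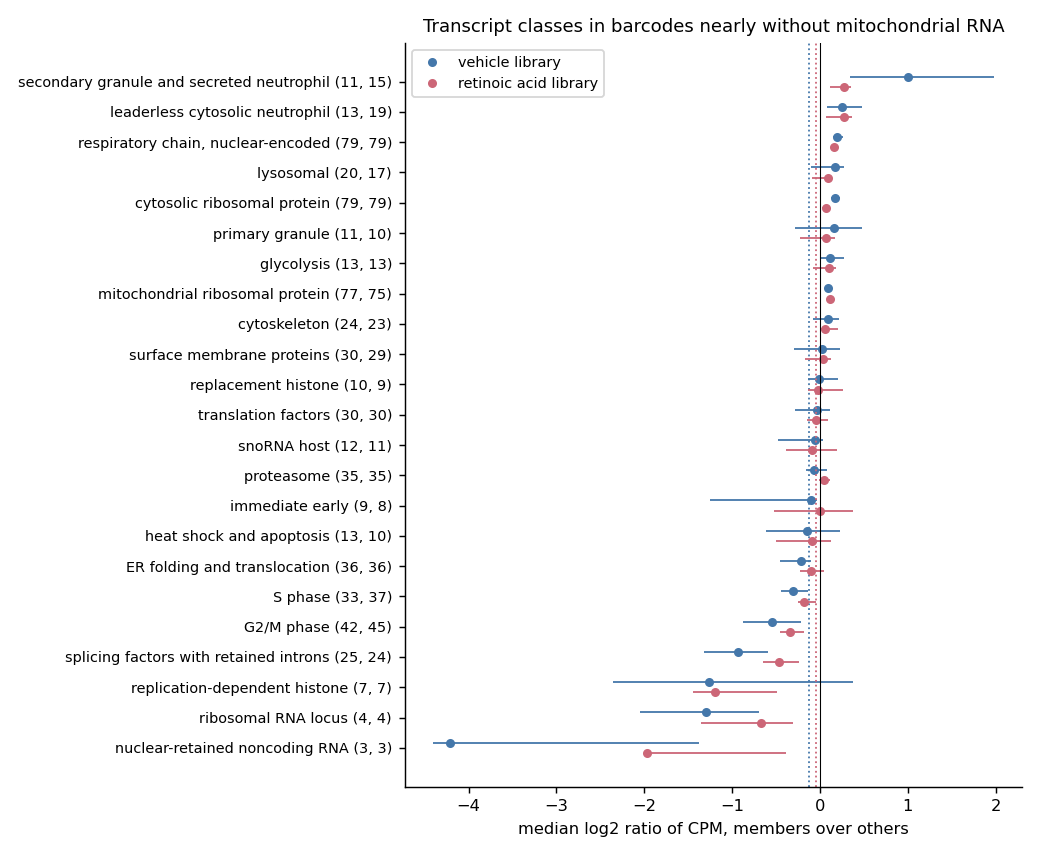
Median log2 ratio of members over others (horizontal axis) for each gene list, vehicle in blue and retinoic acid in red, with the numbers of genes compared in brackets (vehicle, retinoic acid), lines for the 95% order-statistic interval of the median over the genes, and dotted lines for the median of all genes. Nuclear-retained RNAs, the ribosomal RNA locus, replication-dependent histones and splicing factors lie lowest, and the secondary granule list of the vehicle library lies highest at 1.00.

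Granule messages were present in members of both libraries. The primary granule list had medians of 0.15 (8 of 11 above 0) and 0.07 (8 of 10 above 0). Ctsg, the cathepsin G gene, stood at 6337 against 6446 CPM and 6007 against 5978 CPM, and Elane, neutrophil elastase, at 72.1 against 62.7 CPM and 8569 against 7612 CPM. The large difference in Elane between the libraries was therefore present in members and others alike. The secondary granule and secreted list had medians of 1.00 (11 of 11 above 0, 6 at least 2-fold higher) and 0.27 (13 of 15 above 0, 0 at least 2-fold higher). Over all genes 39.4% and 42.4% lay above 0, and 0.338% and 0% were at least 2-fold higher. Maturing neutrophil markers, which overlap with that list, summed to 4173 against 1999 CPM and 77969 against 61590 CPM. In the vehicle library these values rested on few barcodes. Camp, the cathelicidin gene, stood at 661 against 167 CPM, but 62.7% of its counts lay in 1 of 144 members, and without that barcode its log2 ratio went from 1.99 to 0.58. The 10 members with most maturing neutrophil UMIs held 72.0% of those of all vehicle members, and the 10 such members of the retinoic acid library held 10.4%. There Camp stood at 22133 against 17980 CPM and S100a8 at 16438 against 13179 CPM. Against others of the same depth, however, the list's median was 0.28 in the vehicle library and −0.03 in the retinoic acid library, where Camp came to −0.02 and S100a8 to −0.08. Outside the lists, Hmox1, heme oxygenase, named after its values were seen, stood at 57.5 against 14.5 CPM in the vehicle library, and its log2 ratio went from 2.0 to 1.22 without the member holding most of its counts. A Hmox1 UMI was seen in 18.1% of vehicle members and 18.3% of the others. In the retinoic acid library Hmox1 stood at 4.28 against 3.33 CPM. Neutrophil proteins without a signal peptide, such as S100a6 and Lgals1, had medians of 0.25 and 0.27, and −0.03 and 0.06 at equal depth.

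The same classes were followed over the whole range of the mitochondrial share, in sums over barcodes of each interval. Malat1 took 0.0123% of UMIs in vehicle members, 0.0556% from 0.1% to 0.25%, 0.0435% from 0.25% to 0.5%, 0.0913% from 0.5% to 1%, 0.182% from 1% to 2% and 0.435% from 4% to 10%. In the retinoic acid library it took 0.0606%, 0.0757%, 0.119%, 0.146%, 0.266% and 0.747% in the same intervals. Among the others, too, Malat1 was higher at higher mitochondrial shares, except that the vehicle interval from 0.25% to 0.5% lay below the one before it. Coding transcripts over 6000 bases went from 2.20% in vehicle members to 3.88% from 4% to 10%, and from 2.62% to 5.15% in the retinoic acid library, where the last interval had a median of 3913 UMIs per barcode. Respiratory chain messages of the nuclear genome ran the other way, from 3.42% to 2.78% and from 3.39% to 2.72%. All these shares are of totals that include mt- UMIs, which by definition lowers other classes somewhat in the highest intervals. Ribosomal protein messages had no single direction, with 32.9% in vehicle members, 28.5% from 1% to 2% and 30.3% from 4% to 10%.

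**Figure D5:**
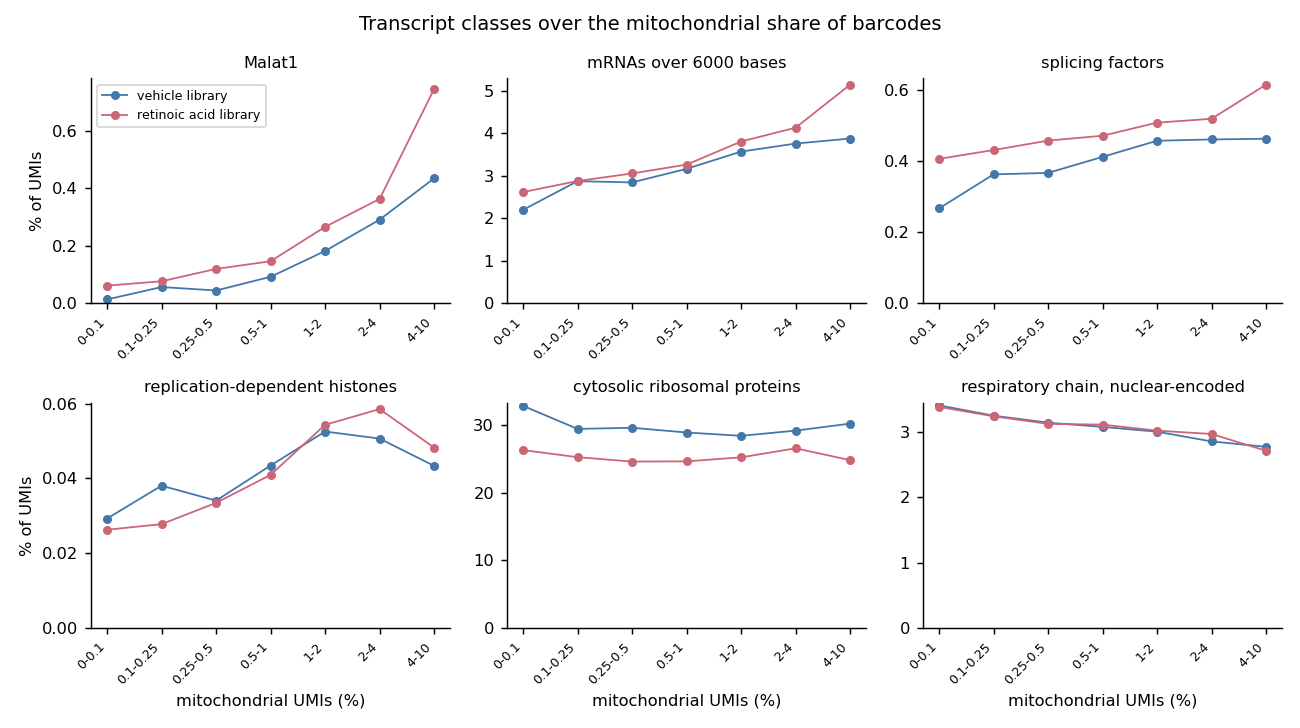
Percent of UMIs (vertical axes, starting at 0) taken by 6 classes in sums over barcodes of each interval of the mitochondrial share (horizontal axes, percent), for both libraries; the leftmost point is the members. Malat1 and coding transcripts over 6000 bases are higher at higher mitochondrial shares, apart from the vehicle interval from 0.25% to 0.5%, while nuclear-encoded respiratory chain messages are lower.

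Members differed among themselves in nuclear RNA. At 5000 UMIs, 97 vehicle members had no Malat1 UMI and 39 had at least 1, and in the retinoic acid library these were 195 and 216. Each set was compared with the others that had a Malat1 UMI, as a description, since the split uses the RNA counts. In the retinoic acid library, members without Malat1 had 9.95% of genes at least 2-fold lower and a median of −0.98 for transcripts over 6000 bases, and members with Malat1 had 0.210% and −0.37. Their median depths were 12654 and 13164 UMIs, and their median mitochondrial shares were 0.0122% and 0.0250%. In the vehicle library the values were 12.9% and −1.02 for members without Malat1 and 10.7% and −0.73 for members with it. By these values the sets lay farther apart in the retinoic acid library, but the 39 vehicle members with Malat1 were few, with a median of 9346 UMIs. In those 39, 113 of 5573 genes were also at least 2-fold higher, against 16 of 5350 in vehicle members without Malat1. In the retinoic acid library these were 1 of 5244 with Malat1 and 4 of 5325 without it. Others without Malat1, 505 and 454 barcodes with median mitochondrial shares of 0.816% and 0.694%, had 0.677% and 0.759% of genes at least 2-fold lower and medians of −0.41 and −0.44 for the long transcripts. Kcnq1ot1, which the split did not use, had log2 ratios of −4.79 and −3.45 in members without Malat1, −3.75 and −1.38 in members with it, and −2.12 and −2.49 in others without it.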

How the data were processed

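The deposited matrices hold raw UMI counts per gene and barcode, which the file headers credit to Cell Ranger 4.0.0; per the file headers and values no scaling was applied. The submitters' processing notes name mm10 and GRCm38.p4, and the gene annotation and the rule that called cells are not given in the sources used here. Of 32285 gene identifiers, 32235 matched GENCODE M21 (GRCm38), which gave positions and, for the transcript with the longest coding part, length, GC content and the translated start. A hydrophobic start was a window of 12 residues within the first 40 with a mean Kyte-Doolittle value of at least 2.0; the planned RefSeq protein table was not used here, and translated GENCODE transcripts took its place.

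Members and lists were chosen with earlier results of these data known. Counts were summed over members and over others of each library and scaled to CPM. Log2 ratios had 0.5 counts added to each sum. Genes with at least 20 CPM in members or others, and 10 counts in all, were compared, and a ratio of at least 2 either way was counted. Totals were 1720912 and 5837604 UMIs in members and 97386806 and 104250643 in others (vehicle, retinoic acid). Sums and ratios carry exact Poisson or conditional binomial 95% intervals, shares exact binomial ones, and list medians order-statistic ones over their genes. A floor of 3 counts was used to describe the depth of members. Like-length medians are those of genes in the same of 20 length classes. Named genes were up to 4 per list by counts, the 10 highest and 10 lowest in both libraries at 50 CPM or more, defining lineage markers and sorted antigens; Gapdh, Xist, Hmox1 and Ccl6 were named after their values were seen. On simulated sums with counting error only, all planted 4-fold changes were counted (100%) and 0% of unchanged genes, over 5348 and 5203 genes. Spread between barcodes was not simulated, so these shares say nothing on 2-fold differences that rest on few barcodes. Scrublet (scanpy 1.11.5) called 1 and 7 doublets, too few for the caller to have worked, and none was removed. TMM factors came from edgeR 4.0.16.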

Additional observations from a re-analysis of the deposited data

Results flagged for a closer look

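Prg2, the major basic protein of eosinophil granules, went opposite ways in the libraries, with a log2 ratio of members over others of 2.35 in the vehicle library and −3.58 in the retinoic acid library; the difference was not tested. In vehicle members 87.7% of its 374 counts lay in 1 barcode, and without that barcode the log2 ratio was −0.66. The eosinophil marker sum had log2 ratios of 1.32 and −1.54, and 75.9% of the vehicle members' 528 counts lay in 1 barcode. The difference between the sums was not tested.

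Among barcodes that the filters removed, 19 of 276 in the retinoic acid library and 0 of 310 in the vehicle library had at most 0.1% mitochondrial UMIs. These 19 had 584 to 1455 UMIs, and their sum of 17509 UMIs held 6 of Malat1 (343 CPM) and 1 mitochondrial UMI. Ribosomal protein messages took 20.4% of it and the secondary granule list 10.4%.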

How the results depend on the processing

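Each value was recomputed under 11 other settings listed beforehand and 3 chosen after seeing the data: leaving out the 10 members with most maturing neutrophil UMIs, weighting the others to the members' share of such UMIs, and keeping barcodes with at least 5000 UMIs. The log2 ratios of Malat1 and Kcnq1ot1, the long-minus-short gap and the splicing factor, replication-dependent histone and ribosomal protein medians kept their sign in both libraries under all 14; "higher" and "lower" genes below are those at least 2-fold so in members. Limits of 0.05% and 0.2% gave member shares of 1.92% and 3.73% in the vehicle library and 5.35% and 9.15% in the retinoic acid library. The 0.05% limit gave a vehicle long-minus-short gap of −1.22 and −0.35 for Prg2. The 0.2% limit gave 10 higher and 326 lower vehicle genes and 52 lower retinoic acid genes, gaps of −0.91 and −0.68, and vehicle medians of −0.076 for the ER list and 0.12 for ribosomal proteins. Others with at least 0.5% gave 1 higher retinoic acid gene and a nuclear-retained median of −2.07 there. Weighting to depth gave 6 higher vehicle genes and vehicle medians of 0.28 (secondary granule), −0.034 (leaderless neutrophil), −0.068 (ER), 0.13 (ribosomal), 0.056 (S phase) and 0.26 (G2/M). The vehicle histone median kept its sign but came close to 0, at −0.094. Depth weighting also gave −0.35 for S100a8 and −0.032 for Ccl6 in the vehicle library and −0.026 for the retinoic acid secondary granule list. Equal weight for every barcode gave 1 higher and 198 lower retinoic acid genes, a gap of −0.82, and medians of 0.10 (ribosomal) and −2.02 (nuclear-retained). TMM scaling gave medians over all genes of 0.040 and 0.034, ribosomal medians of 0.32 and 0.15, and vehicle medians of −0.072 (ER) and 0.041 (immediate early). With it there were 27 higher and 404 lower vehicle genes and 52 lower retinoic acid genes. A limit of 5 CPM gave 69 higher and 1155 lower vehicle genes and 4 and 208 in the retinoic acid library, gaps of −0.98 and −0.66, and a retinoic acid nuclear-retained median of −0.34. No limit gave 5219 and 1830 vehicle genes, 3419 and 925 retinoic acid genes, medians over all genes of 0.12 and 0.033, a vehicle gap of −1.72, and retinoic acid medians of −0.37 (histone) and −0.15 (nuclear-retained). Without a limit the 0.5 counts added outweigh the sums of rare genes, since members have far fewer UMIs in all. Removing the 5% highest doublet scores gave a retinoic acid nuclear-retained median of −2.09. Leaving out the 10 neutrophil-rich members gave 8 higher vehicle genes, a secondary granule median of 0.041, and −4.28 for Camp, −1.18 for S100a8, −1.18 for S100a9 and −1.14 for Ngp; members lost these barcodes while the others kept theirs, so this fall follows from the choice. Weighting to the neutrophil share gave 9 higher vehicle genes and a retinoic acid secondary granule median of 0.089. Barcodes with at least 5000 UMIs gave −3.40 for Prg2 in the vehicle library. The cause of these shifts was not tested. No paired analysis was possible because there was a single library for either treatment and no result came from a test. Depth limits rare genes: 3 counts in members are 1.74 CPM in the vehicle library and 0.514 CPM in the retinoic acid library.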
